A study of Homo sapiens with 2 samples.

Results

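The STAT and IRF transcription factors carry cytokine and interferon signals into the nucleus, and 9 of their genes were examined here in oral squamous cell carcinoma (OSCC) cells. They were STAT2, STAT3, STAT5A, STAT5B, STAT6, IRF1, IRF3, IRF7 and IRF9. Members were all noncontrol probes whose gene name in the array files equaled one of these symbols, which gave 12 of 58201 probes and 9 of 43317 gene names. A total of 3 genes (STAT3, IRF3 and IRF9) had 2 probes each and the other 6 had 1 probe, and each member probe had 1 spot per array. Ca9-22, an established OSCC cell line, carried either a lentiviral vector with the full-length cDNA of the long noncoding RNA DLEU1 or the empty control vector. Both cultures had been infected with lentivirus, kept in medium with 10% serum and selected for 2 weeks in blasticidin, which the labels give as 6 mg/ml. RNA of each culture (100 ng) was labeled with Cy3 and hybridized to 1 Agilent 1-color array, which left 1 array for each of the 2 groups and no replicates. The cultures are called control cells and DLEU1 cells below. The cDNA had been amplified from another OSCC line, KON, and each group was a single selected culture, so the effect of the insert and a difference between the cultures cannot be told apart.

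Type I and type III interferon receptors signal through the kinases JAK1 and TYK2 to ISGF3, a complex that holds STAT2 and the DNA-binding subunit IRF9 and that binds the interferon-stimulated response element (ISRE) of interferon-stimulated genes (ISGs). Interferon gamma and several cytokines act through STAT dimers that bind gamma-activated sites (GAS), and IRF1 is a well known gene of that kind. IRF3 and IRF7 are switched on by phosphorylation downstream of viral nucleic acid sensors and drive transcription of interferon genes. STAT3 answers to the interleukin-6 family and to growth factors, STAT5A and STAT5B to growth hormone, prolactin and interleukin-2, and STAT6 to interleukin-4 and interleukin-13. The activity of these proteins depends on phosphorylation, which an array of mRNA does not measure.

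The probe sequences show which part of each transcript was read, and they are given for the members on which the values below turn. Probes are 60 bases long and are written 5′ to 3′ in the sense of the mRNA, and where only the 3′ part is shown it is the last 30 bases. Capitals mark the AATAAA polyadenylation hexamer in the STAT2 and STAT5B probes, the 5 bases that both IRF3 probes hold, and the TAG stop codon in the IRF7 probe.
STAT2 A_33_P3213064, last 30 bases: aaatggctAATAAActttgtgctgatctgg
STAT3 A_24_P116805, whole probe: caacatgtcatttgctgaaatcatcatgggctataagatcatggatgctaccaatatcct
STAT3 A_23_P100795, last 30 bases: aattagctggtctctgaattaagggggaga
STAT5B A_33_P3380867, last 30 bases: tatgttacAATAAAgccttcctctgaaggg
IRF1 A_23_P41765, last 30 bases: ggccagtgtctgggtttttcttgtggtgta
IRF3 A_23_P27677, whole probe: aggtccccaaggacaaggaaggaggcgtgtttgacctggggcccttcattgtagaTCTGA
IRF3 A_33_P3327333, whole probe: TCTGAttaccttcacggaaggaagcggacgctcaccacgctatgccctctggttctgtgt
IRF7 A_24_P378019, first 58 bases: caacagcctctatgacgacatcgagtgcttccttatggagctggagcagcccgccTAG
IRF9 A_23_P65442, last 30 bases: gtgtcctgaaaatcctcgcacacactggct
IRF9 A_23_P354547, last 30 bases: gttgctgaaactgtacctgctgttactggc
The STAT2 and STAT5B probes thus read the very end of their transcripts. The IRF3 probes overlap by a shared TCTGA and read neighboring stretches of the IRF3 transcript. The longest run that any member probe shared with a probe of another gene name was 12 to 15 bases, so no member probe was a near copy of another gene's probe on this array.

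DLEU1 was measured first, as a check of the vector. Its brightest probe read 3.17 in control cells and 5.91 in DLEU1 cells on the log2 scale, 2.74 apart. The other DLEU1 probes, A_19_P00321577 and A_21_P0007910, differed by 0.85 and 0.54, both short of 2-fold. Levels are log2 processed signals from which the 75th percentile of the array was subtracted, and a difference is the level in DLEU1 cells minus the level in control cells. A probe was called detected where the scanner software marked it as well above background, which held for 47.6% of the probes in control cells and 48.1% in DLEU1 cells. A call means a 2-fold difference or more on probes detected on both arrays. Precision is limited by the single array per group. Technical spread could be taken from 282 probes with replicated spots, whose SD of the log2 difference per spot was 0.080. This SD was 0.27 over the 7 of these probes with a control vector signal under 200, 0.083 over the 105 probes from 200 to 2000, and 0.058 over the 170 probes above that. Different probes of 1 gene had a pooled SD of 0.47 over 4674 genes. Neither value holds the variation between cultures. The scanner software gave an error of 0.20 to 0.24 for the log2 differences of the detected member probes. That error exceeds the spot SD of probes with signals of 200 or more. No member spot (0) was saturated, marked as an outlier or inside a strip of low signal on the DLEU1 vector array.

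Of the 12 member probes, 11 were detected on both arrays and the STAT5A probe on neither. A total of 4 probes from 3 genes were at least 2-fold higher in DLEU1 cells, namely those of STAT2, STAT3 (both probes) and IRF1, against 8.98% of all probes detected on both arrays. No member probe (0) was at least 2-fold lower, against 9.78% of all probes. Differences above 0 were seen for 9 of the 11 detected member probes and for 45.6% of all probes, and differences below 0 for 2 of them and for 54.4% of all. The median difference was 0.79 over the 11 member probes and -0.07 over all 26279 probes, whose 5th and 95th percentiles were -1.34 and 1.36. Taking the brightest probe of each gene, all 8 detected member genes were higher, against 45.8% of all genes, and none (0) was lower, against 54.2%. This count takes IRF3 by its probe at 0.11, whose sign depends on the scaling. It leaves out the IRF3 probe at -0.04 and the IRF9 probe at -0.20. The members were not drawn at random, so these shares describe the 12 probes and no test was made of them. In RNA of a whole culture, fewer cells with a transcript and less of it per cell cannot be told apart.

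**Figure D1:**
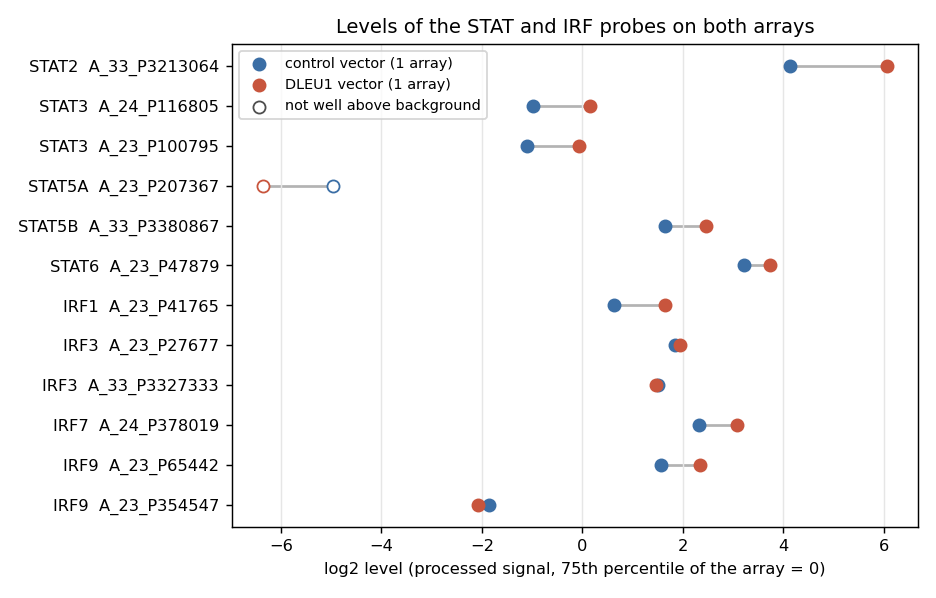
Log2 level of each of the 12 STAT and IRF probes (horizontal axis, processed signal with the 75th percentile of the array at 0) on the control vector array (blue) and the DLEU1 vector array (red), 1 array each and therefore no error bars. Open circles are below the detection call, filled circles are detected. STAT2 shows the widest gap among detected probes (4.13 against 6.07), and the points of both IRF3 probes nearly coincide. Positions of different probes are not comparable with each other.

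STAT2, the ISGF3 subunit that binds the interferon receptor complex, differed most among the detected members. Its probe matches NM_005419 from base 4488 and lies on chromosome 12 from 56735384 to 56735443 on the minus strand (human genome release hg19, as all probe positions here). The processed signal was 4241 in control cells and 15847 in DLEU1 cells, or log2 levels of 4.13 and 6.07. STAT2 was therefore higher in DLEU1 cells by 1.94, which is 3.84-fold and ranks 584 from the top among 26279 detected probes (percentile 97.8). The difference was far larger than the spot SD of 0.058 for probes this bright, and than the 0.20 that the scanner software gave as the error of this difference. Over all alternative settings it ranged from 1.48 to 2.18 and stayed past 2-fold in each of them.

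IRF9, the subunit that joins STAT2 in ISGF3, was read by 2 probes that did not move together. The probe A_23_P65442 matches NM_006084 from base 1403 (chromosome 14, 24635500 to 24635559, plus strand) and had signals of 714 and 1203, or log2 levels of 1.56 and 2.35. This probe was 0.79 higher in DLEU1 cells, or 1.73-fold, which is short of the 2-fold call. The probe A_23_P354547 is assigned to ENST00000558468 and to no RefSeq mRNA, and it lies 607 bases downstream (24636167 to 24636226). Its signals were 66.5 and 56.2, or log2 levels of -1.87 and -2.07, a difference of -0.20. That difference was smaller than the software's error of 0.24 for it. The gap between both IRF9 probes was 0.996, against 0.11 for the STAT3 probes and 0.15 for the IRF3 probes.

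IRF1, an early interferon gamma target and itself an activator of antigen presentation genes, was at least 2-fold higher by a small margin. The probe matches NM_002198 from base 1353 (chromosome 5, 131819442 to 131819501, minus strand). Its signal was 375 in control cells and 743 in DLEU1 cells, or log2 levels of 0.63 and 1.66. The difference of 1.03 (2.04-fold) was larger than the spot SD of 0.083 at this brightness and than the software's error of 0.20. It lay within either of them of the 2-fold line. The spot lies in column 1 at the edge of the array, and with the median of the 100 nearest detected probes taken off the difference was 0.98.

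IRF7, which amplifies type I interferon production and is itself interferon-inducible, had signals of 1216 and 2006. The probe matches NM_004031 from base 1903 and covers the end of the coding sequence with the stop codon (chromosome 11, 612643 to 612702, minus strand). Log2 levels were 2.33 and 3.09. The difference of 0.76, or 1.69-fold, exceeded the spot SD of 0.083 and the software's error of 0.20 and did not reach 2-fold.

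IRF3, which is present in most cells before infection and is controlled mainly by phosphorylation, showed the smallest differences. The probe A_23_P27677 (NM_001571 from base 1181, chromosome 19, 50164080 to 50165258, minus strand) spans 1179 genomic bases and so crosses a splice junction. Its signals were 865 and 910, or log2 levels of 1.84 and 1.95, a difference of 0.11. The probe A_33_P3327333 (NM_001197123 from base 1294, chromosome 19, 50164025 to 50164084) had signals of 690 and 653, or log2 levels of 1.51 and 1.47, a difference of -0.04. The sign of either IRF3 difference depends on the scaling. The first fell below 0 with median scaling (-0.002) and with spike-in scaling (-0.35), and the second was above 0 with the 75th percentile over detected probes (0.07), quantile normalization and loess. No difference in IRF3 mRNA was thus detectable beyond the scaling of the arrays.

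STAT3, a mediator of interleukin-6 signaling that is often active in squamous carcinoma, was measured by probes that lie far apart on its mRNA. The probe A_24_P116805 reads NM_213662 from base 2069 (chromosome 17, 40474404 to 40474463, minus strand) and had signals of 123 and 263, or log2 levels of -0.98 and 0.16. The probe A_23_P100795 reads the same transcript from base 4175 (40465923 to 40465982) and had signals of 113 and 225, or log2 levels of -1.10 and -0.07. The differences were 1.14 (2.20-fold) and 1.03 (2.04-fold). Both probes, 2106 bases apart on the mRNA, were thus higher in DLEU1 cells by nearly the same amount. Both signals were dim, and both differences exceeded the spot SD of 0.27 in that range. With normexp background correction they were 0.79 and 0.68, short of 2-fold.

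STAT5B, which with STAT5A mediates growth hormone and prolactin signals, had signals of 759 and 1292. The probe reads NM_012448 from base 5033 (chromosome 17, 40351196 to 40351255, minus strand), and its log2 levels were 1.65 and 2.45. The difference was 0.81, or 1.75-fold, above the spot SD and the software's error of 0.20 and below the 2-fold call. The STAT5A probe (NM_003152 from base 3822, chromosome 17, 40463483 to 40463542, plus strand) had signals of 7.81 and 2.88, where the lowest signal of a detected probe was 14.2 and 14.3. STAT5A was not well above background on either array, so no direction is given for it.

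STAT6, the factor of interleukin-4 and interleukin-13 responses, had signals of 2249 and 3155. The probe reads NM_003153 from base 3494 (chromosome 12, 57489651 to 57489710, minus strand), with log2 levels of 3.21 and 3.74. The difference of 0.53 (1.44-fold, percentile 79.8) was larger than the spot SD of 0.058 and the software's error of 0.20 and short of 2-fold. It was 0.067 with spike-in probes set equal, the smallest of the detected STAT differences under that scaling.

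**Figure D2:**
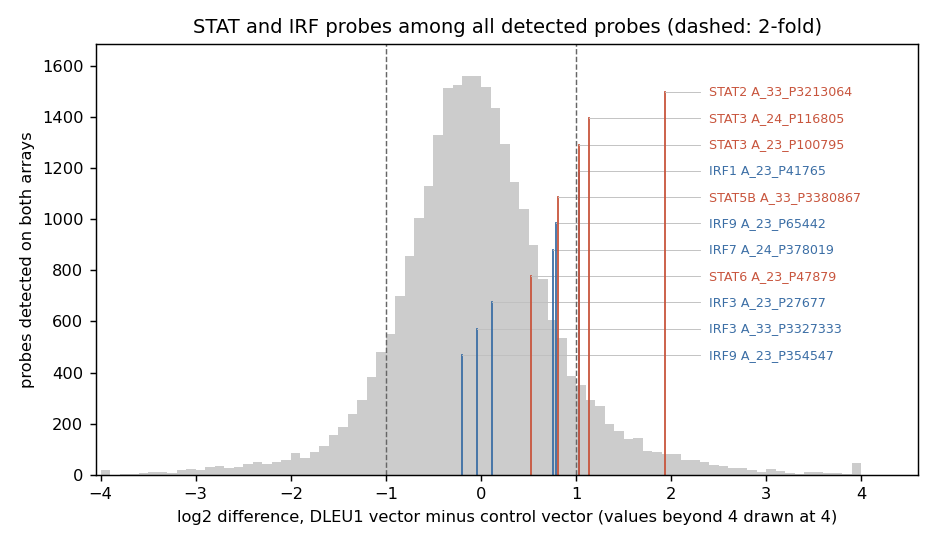
Number of probes detected on both arrays (vertical axis, gray bars, 26279 probes) by log2 difference between the vectors (horizontal axis, values beyond 4 drawn at 4). Colored lines mark the differences of the 11 detected STAT (red) and IRF (blue) probes, and the height of a line only separates the labels. The 4 probes of STAT2, STAT3 and IRF1 lie right of the dashed 2-fold line, and STAT2 lies farthest right at 1.94.

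Scaling decides how many members pass 2-fold, since STAT3 and IRF1 lie close to the line. With the median in place of the 75th percentile, and also with no scaling, 2 probes remained past 2-fold, those of STAT2 and of STAT3 A_24_P116805. Of all probes, 7.5% and 8.49% were at least 2-fold higher under these settings, against 8.98% with the 75th percentile. With the 8 spike-in probes detected on both arrays set equal, and with normexp background correction, the STAT2 probe alone remained (1 probe). The shares of all probes were 4.41% and 5.06%. Spike-in scaling moved the median of all probes by -0.46, and it moved every member by the same amount, so that member differences relative to the median of all probes did not change. The spike-in probes themselves differed by between -0.19 and 0.52 before scaling. At 1.5-fold, 7 of 11 detected member probes were higher, with STAT5B, IRF7 and the RefSeq-matched IRF9 probe added, against 18.2% of all probes. At 3-fold STAT2 was the 1 probe left, against 3.65% of all probes.

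**Figure D3:**
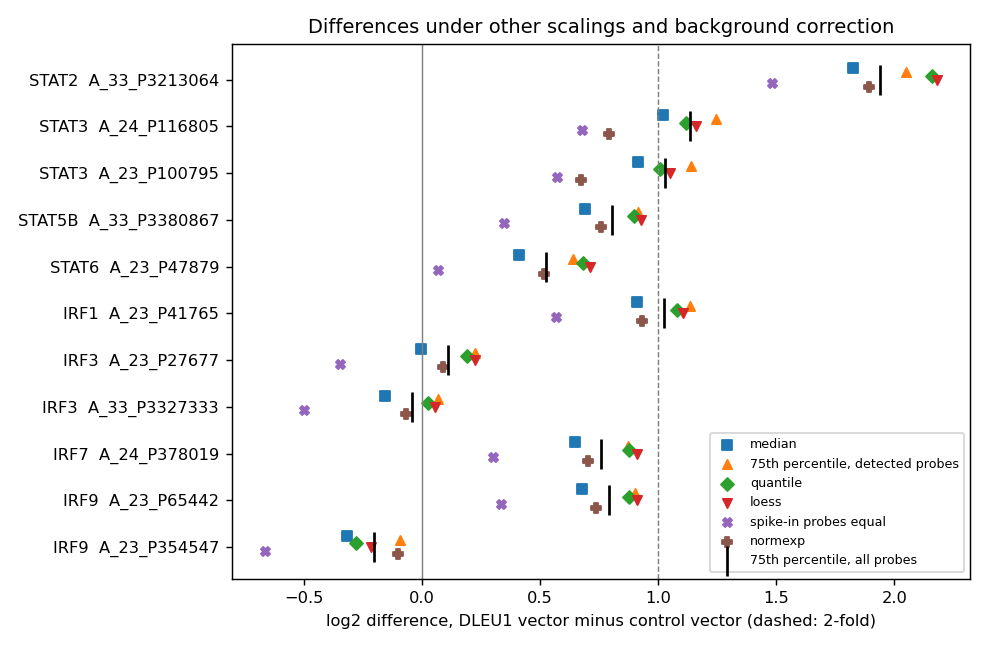
Log2 difference (horizontal axis, DLEU1 vector minus control vector) of each of the 11 detected STAT and IRF probes with the arrays scaled by the 75th percentile of all probes (black bars) and under 5 other scalings and normexp background correction (colored symbols). STAT2 lies right of the dashed 2-fold line throughout (1.48 to 2.18), whereas STAT3 and IRF1 cross it and both IRF3 probes cross 0.

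To place the factors in their pathways, genes upstream and downstream of them were counted from lists of textbook members. Of 115 distinct genes with a probe, 107 were detected on both arrays. Among these 58 were higher and 49 lower, against 45.8% and 54.2% of all genes. A rise of at least 2-fold was seen in 14 genes (13.1%) and a fall of that size in 8 (7.48%), against 9.18% and 9.78% of all genes. The median difference was 0.09, and it turned to -0.03 with median scaling and to -0.37 with spike-in scaling. Over all probes the median was -0.07, and it became -0.19 with median scaling and -0.53 with spike-in scaling. Both scalings move all probes alike, so the medians of these genes and of the lists below kept their place relative to all probes. The 2-fold shares pooled over the genes around the STAT and IRF factors thus lay within a few percentage points of those for the whole array. Pooling can hide lists that differ, and the single lists are given below. Among the factors themselves, 3 of 8 genes were at least 2-fold higher.

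Receptors and kinases that feed STAT2, IRF9 and the other STATs lay on both sides of 0. None (0) of the 9 interferon receptors and JAK kinases passed 2-fold, and the list ran from JAK1 at 0.75 to IFNAR2 at -0.44 with a median of -0.14. Over all genes 9.18% were at least 2-fold higher and 9.78% lower, for comparison with this list and those below. In lists this short, a count of 0 does not set a list apart from the whole array. Of 9 detected cytokine receptors upstream of STAT3, STAT5 and STAT6, IL6ST, the shared signaling chain of the interleukin-6 family, fell by 1.18 (log2 levels of 2.45 and 1.27). GHR, the growth hormone receptor, was the highest of that list at 0.58, and the prolactin receptor PRLR was not well above background on either array. The median of the cytokine receptors was -0.20, and it was above 0 with quantile normalization, loess (0.05) and a signal of at least 100.

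Negative regulators of STAT signaling moved both ways, with a median of -0.002 whose sign depended on the scaling and background correction. Of 13 genes, PIAS1 (1.51), the tyrosine phosphatase PTPN6 (1.23) and SOCS2 (1.07), a feedback inhibitor of growth hormone and STAT5 signaling, rose at least 2-fold, and the phosphatase PTPN11 fell by 1.04. SOCS1, a feedback inhibitor of JAK kinases, had a difference of -0.93 and USP18, which blocks type I interferon receptor signaling, one of -0.89, both short of 2-fold. Of 12 kinases and adaptors upstream of IRF3 and IRF7, none (0) was at least 2-fold higher and 3 were at least 2-fold lower. The shares over all genes were 9.18% and 9.78%. The ubiquitin ligase TRAF3 fell by 1.60, the DNA sensor CGAS fell by 1.31 and the kinase IRAK1 fell from a log2 level of 4.80 to 3.30, while MYD88 was the highest at 0.67. TBK1, the kinase that phosphorylates IRF3, had a difference of -0.36.

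Target genes of ISGF3 lay on both sides of 0. Of 28 detected genes of 30, 17 were higher and 11 lower, against 45.8% and 54.2% of all genes. At least 2-fold, 4 were higher and 2 lower, against 9.18% and 9.78% of all genes. The median of the list was 0.18, and it turned to -0.28 with spike-in scaling. The transporter chaperone RTP4 (2.45), IFITM1 (1.53), SAMD9 (1.49) and the tetherin gene BST2 (1.48) rose at least 2-fold, whereas the oligoadenylate synthetase OAS3 fell by 1.63 and IFI44 fell by 1.51. RSAD2, which codes for the antiviral enzyme viperin, was detected in DLEU1 cells only and was at least 20.0-fold higher there, with the lowest detected signal as its bound in control cells. XAF1 was not well above background on either array. Targets of IRF1 had a median of 0.18 over 16 detected genes of 18 (11 higher and 5 lower), which turned to -0.28 with spike-in scaling. Of these, GBP2, an interferon-induced GTPase, rose by 2.29 and the proteasome subunit PSMB10 was lowest at -0.55. CIITA, the coactivator of MHC class II genes, was detected in DLEU1 cells only (at least 2.88-fold higher), and the chemokine gene CXCL10 in control cells only (at least 2.62-fold lower in DLEU1 cells).

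Of 15 STAT3 targets, LCN2 (3.42), JUNB (2.21) and PIM1 (1.05) rose at least 2-fold, whereas TIMP1 fell by 2.08 and IL6ST fell by 1.18. Their median was 0.30 (10 genes higher and 5 lower), and -0.16 with spike-in scaling. Of 8 STAT5 targets, ID1 (1.18), SOCS2 (1.07) and PIM1 (1.05) rose and none (0) fell 2-fold, with CCND1 lowest at -0.71. The median of 0.62 was the highest of the 9 lists. PIM1, SOCS1, SOCS2, SOCS3, CISH, BCL6, BCL2L1, IL6ST and IL4R stand in more than 1 list, so their values repeat. Among 7 detected STAT6 targets of 10, the serpins SERPINB3 (6.40) and SERPINB4 (6.35) rose and SOCS1 was lowest at -0.93. Their median was -0.17, and it was above 0 with quantile normalization, loess and a signal of at least 100 (0.18). These serpin genes are near-identical copies whose probes may share signal, and both are also known products of squamous epithelium. CCL17, ALOX15 and POSTN of that list were not well above background on either array.

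**Figure D4:**
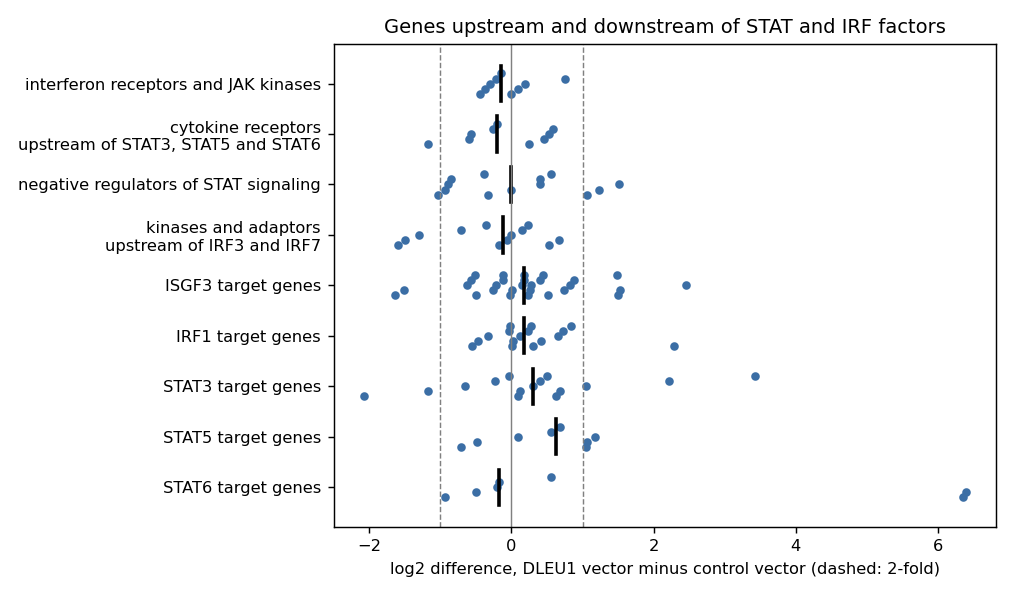
Log2 difference (horizontal axis, DLEU1 vector minus control vector) of each gene detected on both arrays in 9 lists of genes upstream and downstream of the STAT and IRF factors (rows, 1 point per gene, vertical scatter within a row only separates points). Black bars are the medians, which run from -0.20 for the cytokine receptors (above 0 with loess) to 0.62 for the STAT5 targets, and dashed lines mark 2-fold.

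Markers of cell type moved between the arrays as well. All 6 squamous epithelial markers were detected and higher in DLEU1 cells, 5 of them at least 2-fold, and their summed level was 241 in control cells and 1288 in DLEU1 cells in units of the 75th percentile signal. KRT14 and KRT6A, keratins of basal and of activated squamous epithelium, rose by 2.85 and 2.91. Of 5 fibroblast markers COL1A2, COL3A1 and DCN were not well above background, PDGFRB had a difference of -0.33, and COL1A1 rose by 3.99. The summed fibroblast level was 1.53 and 22.3, most of it from COL1A1. Of 3 leukocyte markers with a probe CD3E was not well above background, and the summed level was 0.992 and 0.961. Of 4 endothelial markers PECAM1 and KDR were not well above background, CDH5 had a difference of -0.59, and VWF rose by 3.70. The summed endothelial level was 0.460 and 2.76, and its increase came from VWF alone. The part of these shifts in the STAT and IRF differences was not tested.

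Genes beside the members on the genome did not share one direction. IL23A, whose probe lies 1242 bases from that of STAT2 on the opposite strand, had a difference of -0.81. Near IRF1, a probe of C5orf56 on the opposite strand rose by 1.56, with log2 levels of 0.87 and 2.43. BCL2L12 beside IRF3 had differences of -1.51 and -1.57 at its 2 probes, while the IRF3 probes stayed near 0. Beside STAT6, NAB2 had a difference of 0.57, close to the 0.53 of STAT6, and its probe lies 430 bases away on the opposite strand. PHRF1, 653 bases from the IRF7 probe, had a difference of -0.02. No other gene name had a probe overlapping a member probe.

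The promoters of the members were searched for the letters that STAT and IRF proteins bind, since such letters are known in promoters of ISGs. RefSeq promoters (assembly GRCh38.p14, 250 bases before to 50 after the start of transcription) were given for 7 of the 9 genes, as 9 promoters. STAT5A had more than 1 of them, and no promoter was given for IRF3 and IRF7, which the search therefore does not cover. On both strands the ISRE core, a GAAA and another GAAA with 2 free bases between them, matched none (0) of the 9 and 3.57% of all 35116 promoters. The similar letters GAANNGAAA, which a core match does not fulfil, were searched separately and matched IRF9 and 7.66% of all promoters. The GAS letters TTCNNNGAA matched IRF1 and IRF9 and 7.66% of all. The same letters with 1 more free base, the spacing that STAT6 prefers, matched 1 STAT5A promoter and 6.44% of all. The IRF1 and IRF9 stretches with these letters are shown because both genes are known interferon targets. Capitals mark TTCNNNGAA in IRF1 (positions -124 to -116 from the start) and GAANNGAAA in IRF9 (positions -36 to -28).
IRF1 promoter, chr5:132490839-132490947, minus strand: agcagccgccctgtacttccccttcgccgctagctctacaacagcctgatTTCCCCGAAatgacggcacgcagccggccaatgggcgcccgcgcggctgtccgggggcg
IRF9 promoter, chr14:24161179-24161264, plus strand: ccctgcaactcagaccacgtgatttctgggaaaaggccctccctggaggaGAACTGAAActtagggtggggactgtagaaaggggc
IRF1, with the GAS letters alone, was 1.03 higher in DLEU1 cells, and the RefSeq-matched IRF9 probe, with both kinds of letters, was 0.79 higher. STAT2 (1.94) and STAT3 (1.14 and 1.03) held none of these letters in the window. A match describes letters only, and binding was not measured.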

How the data were processed

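Total RNA of Ca9-22 cells with the control vector or the DLEU1 vector was measured on SurePrint G3 Human GE v3 arrays, 1 per group. The deposited intensity values are processed signals of Agilent Feature Extraction (10.7 per the labels, 10.7.3.1 per the file headers), background-subtracted and detrended within each array and not normalized between arrays.

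Control spots and spots marked as outliers were left out, intensities were log2-transformed and averaged per probe, and the array's 75th percentile over noncontrol probes was taken off (Python 3.11.15). Alternatives were other scalings, normexp with an offset of 50 (limma 3.58.1, R 4.3.3), other detection filters and thresholds of 1.5-fold and 3-fold. The code was checked on simulated data. A gene with several probes took its brightest probe detected on both arrays. With 1 array per group no p-value was computed. Where a probe was detected on 1 array, its fold is a bound against the lowest detected signal or its own.

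The members and the gene lists were chosen with earlier results of these data known. Genes named were all members, DLEU1, and from each list the extremes and every gene changed at least 2-fold or detected on 1 array. SOCS1 as a negative regulator, USP18, TBK1, PRLR, XAF1, CCL17, ALOX15, POSTN, CISH, BCL6, BCL2L1, SOCS3, IL4R, the cell type markers and the neighboring genes were named outside this rule, after their values were seen. CD68 and LYZ were not analysed here, and CGAS was found under an older symbol.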

Additional observations from a re-analysis of the deposited data

How the results depend on the processing

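No paired analysis was possible because each group had 1 array. Member probe differences were taken under the alternative settings in 153 cases. In 99 of them the shift stayed under the SD of replicated spots and in 54 it was larger, and the sign changed in 5, all in IRF3 probes. The 99 include every case of the settings that only filter probes (by detection, signal, saturation or the strip). Such a filter cannot shift a probe's difference, so the 99 do not measure how stable the differences are. The number of member probes at least 2-fold higher was 4, against 8.98% of all probes. It was 2 with median scaling (7.5% of all probes), no scaling (8.49%) and the median of the 100 nearest probes taken off (8.97%). It was 1 with spike-in scaling (4.41%), normexp (5.06%) and the 3-fold threshold (3.65%), and 7 at 1.5-fold (18.2%). The number at least 2-fold lower was 0 (9.78% of all probes), and 1 without the filter on dim probes (STAT5A, against 8.6% of all probes). The member median of 0.79 became 0.68 with median scaling, 0.33 with spike-in scaling and 0.70 with normexp. It became 0.88 with quantile normalization, 0.91 with loess and 0.90 when the percentile was taken over detected probes. The median over the pathway genes was 0.09, and it became -0.028 with median scaling and -0.37 with spike-in scaling. It became 0.17 with quantile normalization, 0.198 with loess and 0.197 when the percentile was taken over detected probes. Among the medians of the single lists the sign changed in 12 of 126 recomputed values, in 6 of the 9 lists (ISGF3, IRF1, STAT3 and STAT6 targets, cytokine receptors and negative regulators). Of 107 detected pathway genes, 14 were at least 2-fold higher and 8 lower, against 9.18% and 9.78% of all genes. At 1.5-fold 24 were higher and 16 lower, against 18.2% and 22.2% of all probes. At 3-fold 6 were higher and 3 lower, against 3.65% and 3.25% of all probes. Spike-in scaling gave 10 higher and 19 lower, against 4.41% and 24% of all probes. Of all called probes 47.9% were higher, and 15.5% with spike-in scaling. The cause of these shifts was not tested beyond the shift of all probes (-0.46 with spike-in scaling, -0.11 with median scaling and 0.11 with the percentile over detected probes).

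The DLEU1 vector array has a strip (rows 1 to 110, columns 36 to 43) in which 34.9% of 416 spots lit on the control vector array were at least 2-fold lower, against 12.8% of 29861 elsewhere. No member spot (0) lies in it, and the nearest is 20 columns away. Leaving out the strip and taking off the nearest probes were alternatives chosen after seeing the data. No spot was saturated (0), so leaving saturated probes out changed nothing. Signal over background limits STAT5A, which has no value, and the dimmer IRF9 probe.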
